A study of Mus musculus with 10 samples.

Results

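The CpG cytosines of the 4 Hox clusters were described here: Hoxa from 52.15 to 52.265 Mb of chromosome 6, Hoxb from 96.19 to 96.37 Mb of chromosome 11, Hoxc from 102.915 to 103.04 Mb of chromosome 15 and Hoxd from 74.66 to 74.77 Mb of chromosome 2, all in mm10. Members were chosen by position alone. Of the 1348062 CpG cytosines in the table of chromosomes 1 to 19, X and Y, 3225 (0.239%) lay in these windows, with 915 in Hoxa, 886 in Hoxb, 659 in Hoxc and 765 in Hoxd. Methylation was measured by reduced representation bisulfite sequencing (RRBS), which reads CpG-rich restriction fragments and tells methylated from unmethylated cytosine. The samples were prospermatogonia, the germ cells of the late fetal testis, of C3H/HeN mice at gestational day 18, in 5 control pools and 5 arsenic pools. Control dams drank tap water, and arsenic dams drank water with 85 ppm sodium arsenite from gestational day 8 to 18. Each pool held 36 testes of 18 embryos, and the cells were taken from them by magnetic separation with an antibody against Thy1.2, so the pool is the replicate throughout.

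Hox genes encode homeodomain transcription factors that give cells their position along the body axis. They lie in rows in which the 3′ genes (low numbers) are used toward the head and the 5′ genes (high numbers) toward the tail. In cells that do not use them, the clusters are typically held silent by Polycomb complexes and H3K27me3, and their CpG islands are typically kept free of DNA methylation. Each cluster also holds microRNA genes and antisense RNAs. The question was what level of methylation the clusters carried in these germ cells, and whether it differed between the arsenic group and the control group.

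2 facts about the pools bear on every value. Total calls were 44207245 to 66570870 per pool, and the median coverage of the Hox CpGs was 24 to 50 reads. Promoters of germline genes such as Ddx4 and Dazl, which are typically unmethylated in fetal germ cells and methylated in body cells, had a mean level of 57.2% ± 3.89 (SD, n = 5) in the control group and 58.9% ± 10.6 (n = 5) in arsenic pools. Of 14 listed genes 10 had CpGs, with gene means from 38.7 to 68.6%. The pool means ran from 43.4% in arsenic 1 to 70.4% in arsenic 5. Maternally imprinted promoters (9 of 12 with CpGs), erased in male fetal germ cells, had 36.3% ± 5.40 and 40.2% ± 7.92, with gene means from 2.43% at Grb10 to 55.8%. The germline promoters were thus partly methylated in every pool, unlike what is typical of the labelled cell type, and what part other cells had in the Hox values was not tested. In such bulk pools, a partial level in all cells and a full level in some cells cannot be told apart. Arsenic 1 had the lowest germline promoter level, the lowest level over the whole table (42.1%, against 45.2 to 47.3% in the other pools) and the highest Hox coverage.

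6 sequences carry the findings that follow. They were read from the GRCm38 genome (the coordinates of mm10), and capitals mark CpGs at which at least one strand was measured. The first 4 are partly methylated to methylated runs, a run being 3 or more CpG cytosines at most 100 b apart, printed with 10 b on either side. The Hoxb5os run (chr11:96307763-96307890, plus strand) lies between Hoxb5 and Hoxb4, in the promoter of the antisense RNA gene Hoxb5os. The Hoxa edge run (chr6:52152980-52153090, plus strand) is the first of the Hoxa window and is intergenic. The Mir196a-1 run (chr11:96264952-96265162, plus strand) lies just upstream of the microRNA hairpin. The Hoxb13-Hoxb9 run (chr11:96232000-96232029, plus strand) had the highest level of all Hox runs.
Hoxb5os run: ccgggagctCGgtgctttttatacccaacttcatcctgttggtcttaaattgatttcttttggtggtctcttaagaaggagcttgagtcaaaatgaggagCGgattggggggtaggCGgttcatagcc
Hoxa edge run: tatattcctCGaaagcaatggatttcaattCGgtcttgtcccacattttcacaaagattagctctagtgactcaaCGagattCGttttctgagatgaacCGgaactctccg
Mir196a-1 run: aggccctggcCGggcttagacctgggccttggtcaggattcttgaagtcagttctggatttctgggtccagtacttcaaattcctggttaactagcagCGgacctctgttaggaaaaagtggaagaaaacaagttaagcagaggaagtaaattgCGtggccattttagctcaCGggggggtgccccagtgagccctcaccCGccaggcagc
Hoxb13-Hoxb9 run: tcaggacctcCGgaagagCGgccagtgctc

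The next sequence, the Hoxa3-Hoxa4 run (chr6:52175370-52175486, plus strand), lies in an intron of a long Hoxa3 transcript and was nearly unmethylated. The last is the last coding exon of Hoxa5 (chr6:52202584-52202831, minus strand), which encodes the homeodomain and is given 5′ to 3′ along the gene.
Hoxa3-Hoxa4 run: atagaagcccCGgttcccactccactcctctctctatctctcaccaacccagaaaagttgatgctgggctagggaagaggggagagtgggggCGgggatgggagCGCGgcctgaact
Hoxa5 last coding exon: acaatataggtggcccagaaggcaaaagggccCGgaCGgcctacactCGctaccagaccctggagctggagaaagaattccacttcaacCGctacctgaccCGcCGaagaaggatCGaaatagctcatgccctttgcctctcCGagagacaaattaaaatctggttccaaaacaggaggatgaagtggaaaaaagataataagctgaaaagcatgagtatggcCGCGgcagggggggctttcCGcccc

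The Hox clusters were weakly methylated in all 10 pools. Averaged over pools, 2028 of the 3225 CpGs (62.9%) had a level under 5%, 781 had 5 to 20%, 328 had 20 to 50%, 69 had 50 to 80% and 19 had 80% or more. Of those 19, 17 lay in Hoxb and 2 in Hoxd. In the whole table, 31.1% of CpGs were under 5% and 24.7% at 80% or more. The clusters were low outside promoters too. The mean level of Hox CpGs was 6.30% in promoters, 7.80% in exons, 10.4% in introns and 9.87% between genes, whereas the same classes had 9.70%, 40.9%, 54.6% and 60.6% over the table.

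The mean level of the flanks differed between clusters and between sides, and where the low level ended was not located. In the 100 kb before the Hoxa window the mean was 70.5% (53 CpGs) against 6.88% inside it and 14.6% in the 100 kb after it, on the side of Evx1, a related homeobox gene. That last mean was uneven. Of its 233 CpGs, 84 lay in one 5-kb bin, at 2.17% in the control group and 2.11% in arsenic pools. Bins centred 177.5 and 197.5 kb from the window start had 73.7 to 91.8%. Hoxc had 79.6% (39 CpGs) before, 7.77% inside and 12.5% after. Hoxb had 45.5% before, 11.4% inside and 54.7% after. Hoxd had 10.1% (177 CpGs) before, 7.15% inside and 13.1% (40 CpGs) after. Its side before was uneven, since 139 of the 177 CpGs lay in the last 5 kb at 1.67% and the other 38 averaged 40.95%, and of the 40 CpGs after it 33 lay in one 5-kb bin.

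**Figure D1:**
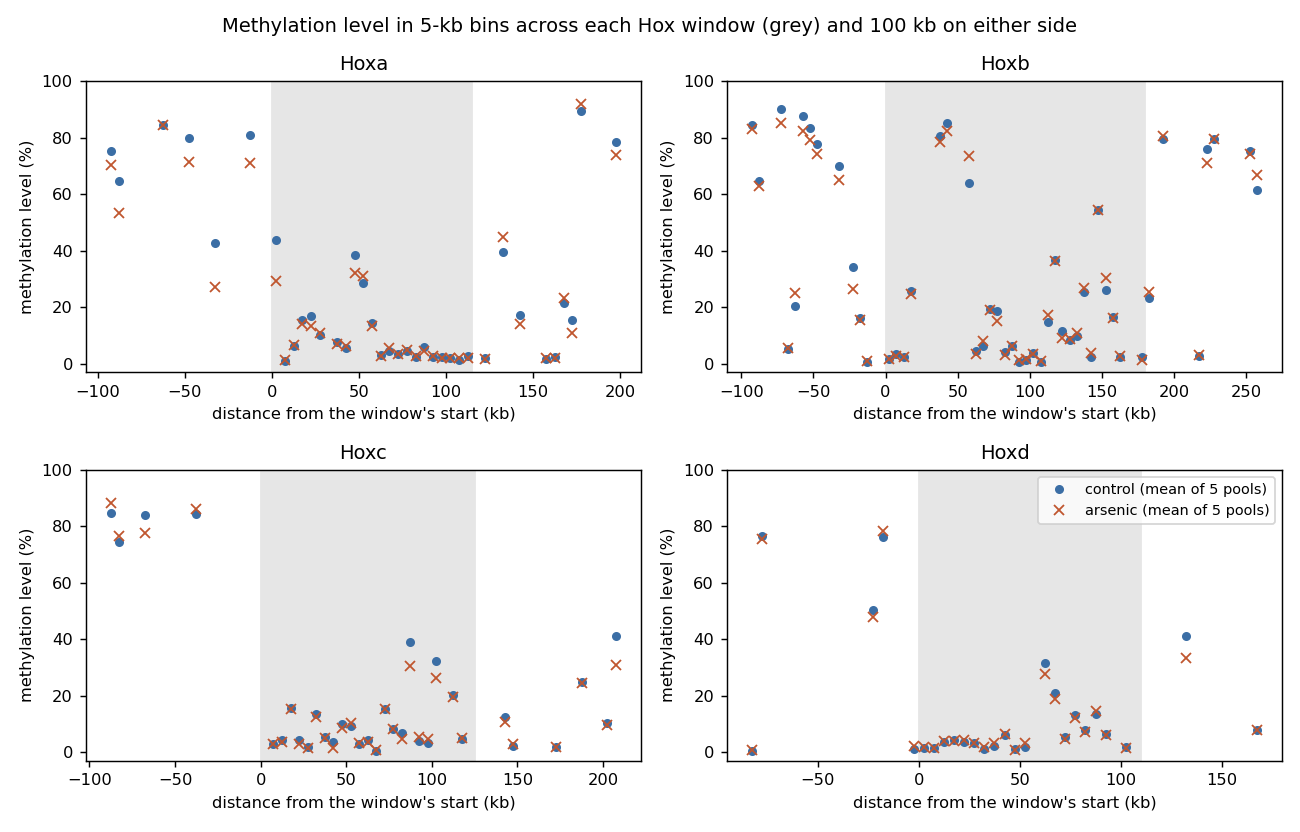
Methylation level (%) in 5-kb bins holding at least 3 CpGs, against the distance from the start of each window in kb, with the window in grey and 100 kb on either side. Dots are the mean of 5 control pools and crosses that of 5 arsenic pools. Levels inside the windows were mostly under 20%, with single higher bins, most of them in Hoxb, and the levels before Hoxa and Hoxc were mostly far higher.

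Inside the clusters, 229 runs were formed (56 in Hoxa, 68 in Hoxb, 51 in Hoxc, 54 in Hoxd) out of 139746 in the table. Their median level was 4.63%, against 66.1% over all runs. Of the 229, 120 were under 5%, 155 under 10% and 9 at 50% or more, of which 8 lay in Hoxb and 1 in Hoxa. The distance remained at equal CpG density where the density was low. Outside promoters, at 2 to 4 CpGs per 100 b of genome, the median was 9.16% for 61 Hox runs and 68.2% for 49580 runs of the table. At 4 to 6 CpGs per 100 b it was 3.46% (40 runs) against 53.7%. At 6 to 8 CpGs per 100 b the Hox runs were not lower, with 1.85% (26 runs) against 1.51%. At 8 or more CpGs per 100 b both were near 1%, with 1.34% (14 runs) and 0.989%. In promoters, Hox runs were lower at 2 to 4 CpGs per 100 b (6.83% against 22.2%). They were slightly higher at 4 to 6 (2.26% against 1.47%) and at 6 to 8 (1.66% against 1.08%).

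**Figure D2:**
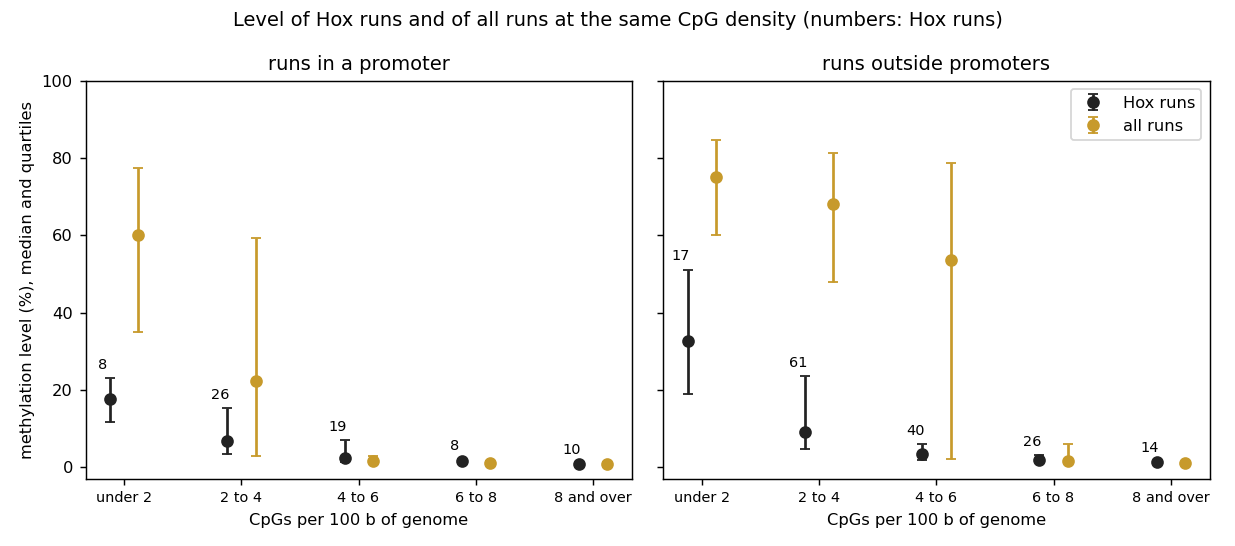
Median level (%) of runs with quartiles, by CpG density of the surrounding genome, for runs in promoters and outside them. Black marks Hox runs, with their number, and ochre all runs of the table. Outside promoters, Hox runs lay below all runs up to a density of 6 CpGs per 100 b and close to them above it.

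The methylated runs of Hoxb sat mainly in the 75.3-kb stretch between Hoxb13 and Hoxb9, a gap that in other clusters holds the genes of groups 10 to 12. Its 333 CpGs averaged 16.9% ± 0.563 in the control group and 16.8% ± 1.53 in arsenic pools (n = 5 each), and 6 of its 24 runs were at 50% or more. The Hoxb13-Hoxb9 run printed above had levels of 91.7, 98.2, 97.7, 87.6 and 98.2% in the control pools and 89.5, 95.7, 93.9, 82.2 and 95.1% in the arsenic pools, so the groups overlapped. The 2 next highest runs of Hoxb, in the same gap, had 79.7% ± 10.1 and 77.2% ± 6.36 in the control group and 78.4% ± 2.93 and 75.9% ± 2.36 in arsenic pools. Without this gap, the other 553 CpGs of Hoxb averaged 8.14% over the 10 pools, close to the other clusters. Of the other intervals of Hoxb, Hoxb4 to Hoxb3 (21.8%, 44 CpGs) and Hoxb5 to Hoxb4 (18.4%, 54 CpGs) had the highest means, which were above that of the gap.

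In the other clusters the highest runs were only partly methylated. In Hoxa, both top runs lay between Hoxa4 and Hoxa5, with 58.5% ± 9.83 in the control group and 58.4% ± 7.85 in arsenic pools at one and 54.7% ± 13.4 and 45.2% ± 20.6 at the other, where pools ran from 13.3% in arsenic 1 to 73.1% in control 3. The whole interval of 73 CpGs averaged 25.4%. In Hoxc, the top runs lay between Hoxc8 and Hoxc6 (37.0%), between Hoxc9 and Hoxc8 (37.0%) and in an intron of Hoxc10 (35.8%). In Hoxd, they lay in the 3′ untranslated part of Hoxd3 (37.7%), in an intron of long Hoxd3 transcripts (32.6%) and in the promoter of Hoxd4 (31.5%). Hoxd, read from its 5′ end, stayed at 1.59 to 4.496% in all 6 intervals from the window start to Hoxd8, and reached 13.7%, 10.9% and 9.74% in the 3 intervals from Hoxd8 to Hoxd1.

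The promoters of the Hox genes, taken as 1 kb upstream to 100 b downstream of a start, were low in nearly every gene. CpGs were measured for 28 of 38 genes. Hoxa2, Hoxa3, Hoxa10, Hoxb2, Hoxb3, Hoxb4, Hoxb5, Hoxb8, Hoxc6 and Hoxd13 had none there. The median level of the 28 was 2.60%, from 0.687% at Hoxa13 to 20.7% at Hoxd4, and 23 were under 10%. That is 82.1% of them, against 65% of the 16794 genes with promoter CpGs, whose median was 2.11%. The group 13 genes, the most 5′ of their clusters, were all low, with 0.687% at Hoxa13, 1.69% at Hoxb13 and 1.12% at Hoxc13.

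The 5 highest promoters were those of Hoxd4 (20.7%, 17 CpGs), Hoxa9 (16.0%, 12 CpGs), Hoxa6 (14.96%, 18 CpGs), Hoxd3 (12.8%, 71 CpGs) and Hoxc11 (10.4%, 8 CpGs). Hoxd4 had 28.2, 18.4, 23.3, 17.9 and 21.1% in the control pools and 17.3, 20.9, 23.1, 20.3 and 17.0% in the arsenic pools. Hoxa9 had 20.4, 17.7, 14.3, 15.4 and 16.3% in the control pools and 15.2, 12.3, 17.5, 15.5 and 15.5% in the arsenic pools. The groups overlapped at both genes.

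By limma over all 16794 promoters, no Hox promoter passed an adjusted p under 0.05, and none in the table did (0%). The smallest adjusted p among Hox genes was 0.882. With an unadjusted p under 0.05 there was 1 of 28 Hox promoters (3.57%), against 5.63% of all promoters. Leaving out single pools gave 1 to 4, with 4 (14.3%, against 4.88%) without arsenic 4, 3 (10.7%, against 5.41%) without control 4, and 2 without control 1 or arsenic 3. The one with all pools was Hoxd9, with 5.42, 0.681, 4.73, 4.27 and 1.66% in the control pools and 6.24, 6.54, 8.94, 5.75 and 4.29% in the arsenic pools. Its group means were 3.35% ± 2.06 and 6.35% ± 1.68 (limma adjusted p = 0.882), and the groups overlapped. The next smallest were Hoxc12, whose control mean of 2.45% ± 4.87 rested on control 5 alone at 11.1%, and Hoxb13, with 1.99% ± 0.539 and 1.40% ± 0.337.

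The coding sequence of Hox genes was not uniform. Most Hox genes have 2 coding exons, of which the last encodes the homeodomain, the DNA-binding part. First coding exons had a median level of 1.41% (28 genes with CpGs), and none exceeded 4.63%. Last coding exons had a median of 10.2% (20 genes), and 5 were at 20% or more. Of the 14 genes with CpGs in both, 11 had the higher level in the last exon, and 8 to 14 did so in the single pools. Such a step is general. Among 166 genes of the table with 2 coding exons and CpGs in both, the last was higher in 72.9%, but it was at 20% or more in 66.6% of 404 such genes, against 25% of the Hox genes, while the first was under 5% in 62.2% of 442 such genes, against all 28 Hox genes measured.

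**Figure D3:**
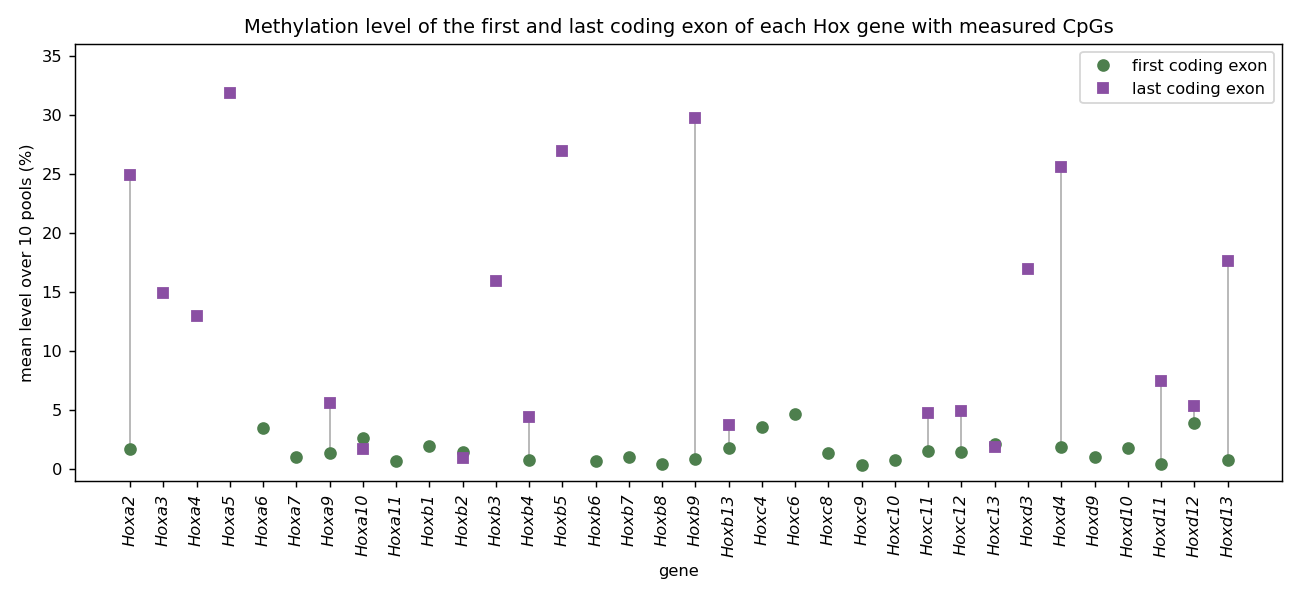
Mean level (%) over the 10 pools of the first coding exon (circles) and the last coding exon (squares) of each Hox gene with measured CpGs, with a line joining both exons of a gene. All circles lay at or under 4.63%, and the squares ran from 0.973% at Hoxb2 to 31.8% at Hoxa5.

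The 5 last exons at 20% or more were those of Hoxa5 (31.8%, 12 CpGs), Hoxb9 (29.7%, 8 CpGs), Hoxb5 (26.9%, 24 CpGs), Hoxd4 (25.6%, 14 CpGs) and Hoxa2 (24.9%, 7 CpGs). Hoxa5 and Hoxb5 are paralogues, and the Hoxa5 exon is the last sequence printed above. At Hoxa5 the pools had 35.8, 20.99, 35.7, 31.8 and 27.8% in control pools and 12.9, 37.0, 21.3, 53.4 and 41.4% in arsenic pools. At Hoxb5 they had 22.9, 30.5, 31.9, 22.2 and 21.03% in the control group and 17.5, 24.4, 30.1, 27.6 and 41.2% in arsenic pools. At both, arsenic 1 was the lowest of all 10 pools, and the highest was another arsenic pool. Hoxb9 had 44.3, 40.2, 32.4, 24.1 and 35.7% in the control group and 13.4, 31.8, 27.2, 27.6 and 20.3% in arsenic pools. The groups overlapped at Hoxb9, and its 35.3% ± 7.74 against 24.1% ± 7.24 was not tested by itself. Of its CpGs, those at chr11:96274672, 96274697 and 96274746 were lower by the logistic regression of single CpGs given below. By limma each of them had an adjusted p of 0.830.

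MicroRNA genes of the clusters differed from one another. Mir196a-1 (Hoxb), Mir196a-2 (Hoxc) and Mir196b (Hoxa) encode microRNAs that target Hox messages and share one seed, bases 2 to 8, given in capitals in their RefSeq mature sequences on GRCm38.
mmu-miR-196a-5p: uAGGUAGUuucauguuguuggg
mmu-miR-196b-5p: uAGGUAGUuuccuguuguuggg

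The mature sequence of miR-196a is the same from both of its genes, but the sequences at their annotated starts were not alike in level. For these genes the annotated start is that of the hairpin, so promoter here means the sequence beside the hairpin. Where their transcription starts was not measured. The Mir196a-1 promoter had 28.4, 41.9, 23.8, 32.7 and 31.9% in the control pools and 23.8, 27.1, 23.9, 26.6 and 22.5% in the arsenic pools (16 CpGs). At Mir196a-2 the group means were 2.95% ± 2.34 and 3.43% ± 1.77 (11 CpGs), and at Mir196b, with a single CpG, the mean was 0.435%. Every pool was thus higher at Mir196a-1 than at the other 2. The Mir196a-1 run printed above holds 7 of these CpGs, and had 55.8% ± 6.18 in the control group and 45.2% ± 3.70 in arsenic pools (difference -10.5 points, limma adjusted p = 0.693). Its groups overlapped. Of the 50 other genes annotated in the windows, 29 had promoter CpGs, 21 of them under 10% and 6 at 20% or more, which beside Mir196a-1 were Gm14426 (86.0%, 1 CpG), Gm11539 (66.1%), Hoxb5os (59.4%), Gm27383 (23.7%, 1 CpG) and Gm28011 (22.6%). Among 43 listed regulators and cofactors of Hox genes, such as the Polycomb genes and the Meis and Pbx cofactors, 32 had promoter CpGs. Of these 30 were under 10%, and Phc2, a Polycomb gene, was the only one at 20% or more, with 22.8% ± 6.94 in the control group and 28.0% ± 4.45 in arsenic pools. None of the 29 and 32 had a limma adjusted p under 0.05, and 1 and 3 of them had an unadjusted p under it, where 5.63% of all promoters did.

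The mean level of the clusters differed little between the groups. Over all Hox CpGs it was 8.46% ± 0.162 in the control group and 8.28% ± 0.761 in arsenic pools, a difference of -0.180 points, less than the spread of the arsenic pools. Hoxa had 6.90% ± 0.327 and 6.85% ± 0.880, Hoxb 11.4% ± 0.362 and 11.4% ± 1.10, and Hoxd 7.23% ± 0.519 and 7.07% ± 0.599. Hoxc differed most. Its control pools had 8.16, 8.15, 8.14, 7.90 and 7.96%, and its arsenic pools 6.78, 7.27, 7.69, 7.61 and 8.07%. Of the arsenic pools 4 lay below every control pool, and arsenic 5 lay among them. The Hoxc means were 8.06% ± 0.122 and 7.49% ± 0.485, a difference of -0.576 points with all pools and -0.400 without arsenic 1. These means are descriptions, with no test. Over the whole table the means were 45.9% ± 0.581 and 45.4% ± 1.98.

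**Figure D4:**
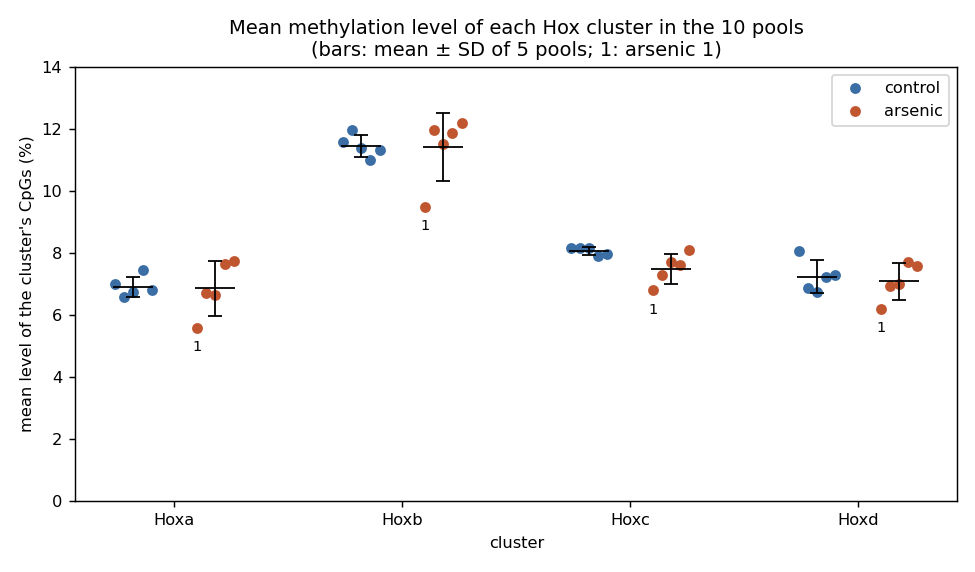
Mean level (%) of the CpGs of each Hox cluster in each of the 10 pools, with the mean ± SD of 5 pools as bars and arsenic 1 marked. Arsenic 1 was the lowest pool in all 4 clusters, and in Hoxc 4 of 5 arsenic pools lay below the control pools.

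No run of the clusters differed between the groups past the threshold. By limma on all 139746 runs, 0 of 229 Hox runs and 0 of all runs (0%) had an adjusted p under 0.05, and the smallest adjusted p in the clusters was 0.686. At an unadjusted p under 0.05, 8 Hox runs were lower in the arsenic group (3.49%, against 5.11% of all runs) and 8 were higher (3.49%, against 1.97%). Over all pools left out in turn the lower runs were 6 to 13 and the higher ones 7 to 11. The lower runs were 13 without arsenic 3 (5.68%, against 5.998%) and 6 without control 1 (2.62%, against 4.00%). The higher runs were 7 without control 4 (3.06%, against 1.95%) and 11 without control 2 (4.80%, against 1.85%). Without arsenic 1, 11 were lower and 11 higher (4.80% each, against 3.67% and 3.70%). The groups did not overlap at 4 lower runs (1.75%, against 1.03%) and at 2 higher runs (0.873%, against 0.298%). Most Hox runs were too low to drop far. Of the 73 at a mean level of 10 to 90%, 4 were lower without overlap (5.48%, against 1.2%). At that level 0 were higher without overlap (0%, against 0.246%). An unadjusted p under 0.05 by limma, in either direction, was seen at 8 of the 73 (11%, against 6.71%). These shares were not tested. Among the 73 Hox runs at a mean level of 10 to 90%, the arsenic mean was lower at 51 (69.9%, against 61.1% of all such runs). Without arsenic 1 it was lower at 58.9% of them, against 52.5% in the table. With runs cut at gaps of 50 b the shares were 58.6% and 58.9%, so the excess over the table was not seen there. With gaps of up to 300 b they were 72.4% and 62.5%, and at a coverage of at least 20 they were 76.7% and 60.3%.

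The run of the clusters with the largest drop among the 5 of smallest p was the Hoxb5os run. It had 71.6, 65.8, 69.2, 63.2 and 65.9% in the control pools and 46.4, 62.9, 46.1, 51.9 and 46.3% in the arsenic pools. Every arsenic pool was below every control pool, arsenic 2 by the least. The means were 67.2% ± 3.28 and 50.7% ± 7.25 (difference -16.5 points, limma adjusted p = 0.686). Behind each value stood 56 to 89 calls summed over the 3 CpGs, and a read can give calls at several of them. With 26 of 56 calls methylated in arsenic 1 the exact 95% interval was 33.0 to 60.3%, for counting error only. That interval takes calls as independent and is too narrow. The 3 CpGs of the run, all read on the minus strand, did not move alike. The first, in the 5′ part of the printed sequence, had 59.6% ± 9.79 and 31.7% ± 9.44, the middle one 68.6% ± 4.65 and 64.2% ± 9.14, and the last 73.6% ± 8.84 and 58.7% ± 6.66.

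The Hoxa edge run had 42.9, 46.8, 38.5, 46.5 and 35.7% in the control pools and 26.6, 29.4, 31.8, 23.3 and 29.5% in the arsenic pools. The groups did not overlap. The means were 42.1% ± 4.89 and 28.1% ± 3.27 (difference -14.0 points, limma adjusted p = 0.686). Of its 8 CpG cytosines 7 had a lower arsenic mean, with differences from -19.2 to -9.43 points. Arsenic 4 was the lowest pool here, and without any one pool the difference stayed between -15.6 and -12.8 points. The run was named for its small p with all pools, so this is no independent support. The other 2 runs without overlap and lower in the arsenic group lay in Hoxc, one between Hoxc11 and Hoxc10 (21.6% ± 2.74 and 15.4% ± 1.95, 15 CpGs) and one between Hoxc8 and Hoxc6 (41.8% ± 2.93 and 32.3% ± 4.21, 3 CpGs). They were singled out after their values were seen, and both had an adjusted p of 0.688 by limma.

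The runs of smallest p that were higher in the arsenic group were all nearly unmethylated. Incomplete bisulfite conversion leaves some unmethylated cytosines read as methylated. The paper reports incomplete conversion, as a range that is not given by pool. What part it had in these rises, and in other levels of a few percent, was not tested. The Hoxa3-Hoxa4 run had 1.12, 2.00, 1.89, 0.746 and 1.46% in the control pools and 7.23, 2.76, 3.68, 7.09 and 4.62% in the arsenic pools (difference 3.63 points, limma adjusted p = 0.686). Every arsenic pool was above every control pool. A run in an intron of Hoxc6 (chr15:103010171-103010207, 5 CpGs), 616 b from the start, had 1.68, 0, 0, 1.80 and 0% in the control pools and 8.59, 2.63, 5.00, 1.94 and 3.86% in the arsenic pools, also without overlap. The control pools at 0 had 55, 237 and 242 calls, summed over the 5 CpGs. Taken as independent, these allow levels of up to 5.45, 1.27 and 1.24%. A read can give calls at several CpGs, so these limits are too low. A run in the coding sequence of Hoxa13 (chr6:52259898-52260011, 15 CpGs) had 0.356% ± 0.377 and 1.95% ± 1.88. Arsenic 2 alone reached 5.22% there, and without it the difference was 0.779 points against 1.595 with all pools. Both had an adjusted p of 0.686.

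**Figure D5:**
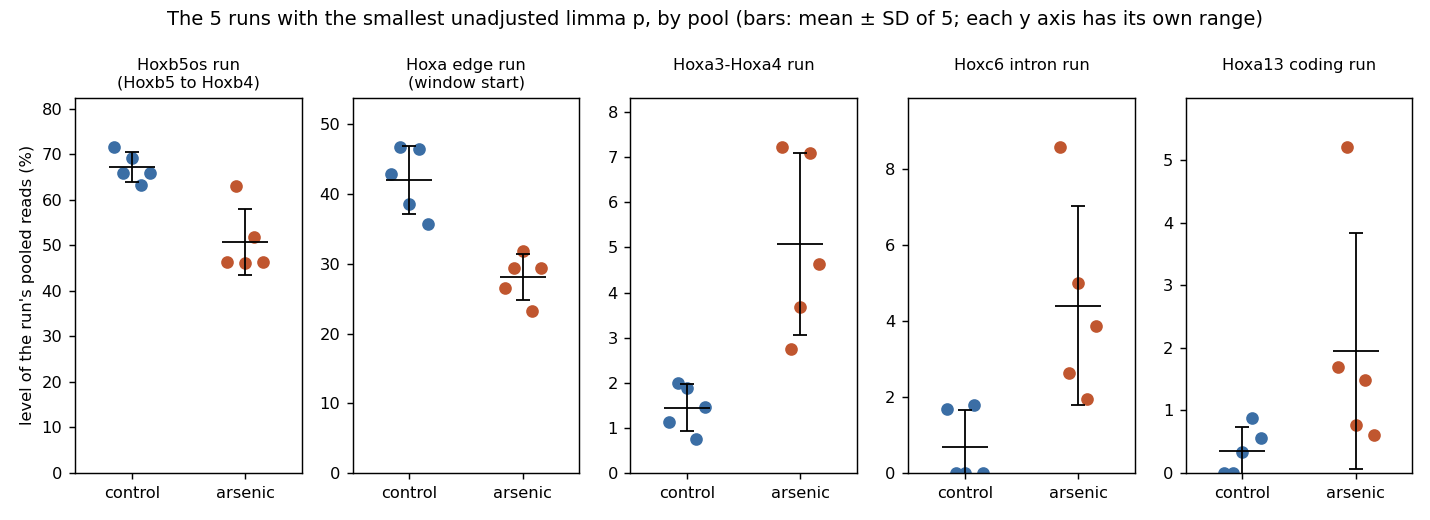
Level (%) of the 5 Hox runs with the smallest unadjusted limma p in each of 5 control and 5 arsenic pools, with the mean ± SD as bars. Each panel has its own axis, from 0. The first 2 runs were lower in all arsenic pools, and the other 3, under 10%, were higher on average.

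Counted by single CpGs with the logistic regression of the study (q of at most 0.01 and at least 10 points), the clusters held 27 hypoDMCs, sites lower in the arsenic group, and 16 hyperDMCs. That was 0.837% and 0.496% of the Hox CpGs, against 1.48% and 0.784% of all CpGs. Among CpGs at a level of 10 to 90%, where such a difference has room, the shares were 2.96% and 1.35% of 743 Hox CpGs, against 2.44% and 1.3% of the table. Hoxa had 3 hypoDMCs and 4 hyperDMCs, Hoxb 11 and 5, Hoxc 7 and 3, and Hoxd 6 and 4. Without arsenic 1 the counts were 21 hypoDMCs and 21 hyperDMCs, and the shares of the table moved too, to 1.11% and 1.35%. Without control 1, 21 hypoDMCs and 22 hyperDMCs were called, beside 1.18% and 0.749% of the table. This regression takes reads as independent. By limma per CpG, with the pool as replicate, 0 Hox CpGs and 0 in the table (0%) passed an adjusted p under 0.05, and 212 Hox CpGs (6.57%, against 6% of the table) had an unadjusted p under 0.05.

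Groups did not overlap at 7 of the hypoDMCs (25.9%, against 15.6% of those in the table) and 1 of the hyperDMCs (6.25%, against 12.6%). The largest drop was at chr11:96307773 (minus strand), the first CpG of the Hoxb5os run, with 69.2, 60.7, 45.5, 54.8 and 67.7% in the control pools and 26.3, 45.2, 25.9, 37.9 and 23.1% in the arsenic pools. Next came chr2:74747825 (plus strand), in the 3′ untranslated part of Hoxd3, with 66.9% ± 12.9 and 40.1% ± 5.19. The third, at chr11:96310991 (minus strand) between Hoxb5 and Hoxb4, had 41.0% ± 7.49 and 19.6% ± 9.84. The call at the first held without any one pool. The second was lost without control 1, control 2, arsenic 1, arsenic 3 or arsenic 4, and the third without control 3, arsenic 1 or arsenic 3. The single rise without overlap was at chr6:52229690 (minus strand), between Hoxa9 and Hoxa10. There 10 to 19 control reads held no methylated read in any pool, which allows up to 15.8 to 30.0%, and the arsenic pools had 7.69, 11.1, 27.3, 11.5 and 7.41%. At 11 to 27 reads, those values came from 2 or 3 methylated reads each, and the call was lost without any one pool other than arsenic 1 and arsenic 5.

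The spread within the control group was large at a few runs. The 5 with the largest control SD were the run between Hoxa4 and Hoxa5 given above (SD 13.4), a run in the Hoxa7 promoter (29.2% ± 13.2), a run upstream of Mir196a-1 (12.8% ± 11.9), a run between Hoxd9 and Hoxd8 (SD 11.1) and a run between Mir196a-1 and Hoxb9 (23.5% ± 10.2). At the Hoxd9 to Hoxd8 run control 2 stood at 26.7% and the other 4 control pools at 0 to 4.17%. These rest on 30 to 99 calls per pool, summed over the CpGs of the run.

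The germline promoter level of a pool, used as a covariate, moved with no Hox run past the threshold. By limma 0 of 229 Hox runs and 0 of all runs (0%) had an adjusted p under 0.05, with a smallest value of 0.269 in the clusters. With an unadjusted p under 0.05 and a rising level there were 12 Hox runs (5.24%, against 9.06% of all runs), and with a falling level 2 (0.873%, against 1.44%). Without arsenic 1 there were 14 rising (6.11%, against 5.51%) and 14 falling (6.11%, against 3.89%), and the smallest adjusted p in the clusters was 0.444. Falling runs were 0 without arsenic 4, 1 without control 1, control 5 or arsenic 3, and otherwise 2 or 3. The smallest p belonged to a run between Hoxb13 and Hoxb9, with 3.05, 3.49, 8.47, 5.88 and 7.91% in the control pools and 0.465, 1.92, 2.25, 9.40 and 9.11% in the arsenic pools (limma adjusted p = 0.269). Arsenic 4 and arsenic 5, which had the highest germline promoter levels, were the highest there too, and arsenic 1 the lowest. Next came the runs of the Hoxa5 and Hoxb5 homeodomain exons (limma adjusted p = 0.279 and 0.286), a run upstream of Hoxd3 (adjusted p = 0.338) and a run in the Hoxa6 promoter (adjusted p = 0.369), whose pools ran from 21.2% in arsenic 1 to 42.9% in arsenic 5. On the log2 scale the slope of this last run fell from 0.0451 to 0.0286 per point of germline level without arsenic 1. For the Hoxb5os run and the Hoxa edge run the same fit gave limma adjusted p of 0.904 and 0.971. As no run passed in it, these values do not show whether either run moved with the germline level.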

How the data were processed

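The members, gene lists and tests were chosen with earlier results of these data known. RRBS libraries of 5 control and 5 arsenic pools were measured. Per the labels and methods, reads were trimmed by the authors with Trim Galore (0.6.5 in the submitters' processing notes), mapped to mm10 with Bismark (0.22.3) and united CpG calls with methylKit (1.22.0). Whether PCR duplicates were removed is not given in the sources used here. According to the methods, 1 arsenic sample of low depth was left out by the authors. The deposited table holds raw counts, as coverage, methylated and unmethylated reads per CpG cytosine, with the strands apart and at least 10 reads in every sample. Of 1349101 entries, 1039 off chromosomes 1 to 19, X and Y were not used.

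A level was methylated reads over coverage, in percent, and means were unweighted over CpGs. All 3225 Hox positions lay at a CpG of the GRCm38.p6 genome on the stated strand. Genes were from GENCODE M21 (basic set). Coding exons were those of the longest coding sequence of a gene. Runs, promoters and CpGs were tested with limma 3.58.1 (R 4.3.3) on log2((methylated + 1)/(unmethylated + 1)) of summed reads, fitted over the whole table with Benjamini-Hochberg adjustment. A run was called at an adjusted p under 0.05 and 10 points. DMCs were called by a likelihood-ratio logistic regression per CpG. Scripts were tested on simulated data. The covariate was the mean promoter level of 10 germline genes. Named were the 3 highest runs per cluster, the 5 of smallest p, of largest control SD and of smallest covariate p, the 5 highest promoters and 3 of smallest p, and the 3 largest drops and rises among non-overlapping DMCs, at most 1 per 1 kb. Of rises, 1 was found. Python 3.11.15 was used.

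Coverage was even at 53.6 to 62.7% of Hox CpGs per pool. Reads may have been partly counted in pairs, which was not tested and would make the counting intervals too narrow. Pools are the replicates, and no 2 of them had identical counts at over 1.69% of the CpGs. Alternatives were a coverage of at least 20, coverage-weighted means, merged strands, other gaps and promoter widths, levels in percent, an overdispersion F test, the replicate number as a block, the covariate, and leaving out each pool.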

Additional observations from a re-analysis of the deposited data

Results flagged for a closer look

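In 90 groups of 5 pools, 6 held a pool far from the other 4 by Dixon's criterion. The criterion flags about 1 in 20 (4.5) in groups of normal values not chosen by their values. Many of the items here were named for their level, spread or p, so that rate is no yardstick for the 6. The run between Hoxd9 and Hoxd8, for example, was named for its control SD. In the mean level of Hoxb, arsenic 1 stood at 9.48% and the other arsenic pools at 11.5 to 12.2%. In the Hoxa13 coding run, arsenic 2 stood at 5.22% and the others at 0.601 to 1.70%. In the run between Hoxd9 and Hoxd8, control 2 stood at 26.7% and the others at 0 to 4.17%. In the run upstream of Hoxd3, arsenic 4 stood at 10.1% and the others at 0 to 2.56%. In the Hoxc12 promoter, which has 3 CpGs, control 5 stood at 11.1% and the others at 0 to 1.13%. At the CpG between Hoxa9 and Hoxa10 that was 0 in all control pools, arsenic 3 stood at 27.3% on 11 reads and the others at 7.41 to 11.5%.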

How the results depend on the processing

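The lack of called runs, promoters and covariate effects held under every alternative that was run. The DMC counts did not hold. The 27 hypoDMCs and 16 hyperDMCs became 14 and 7 at a coverage of at least 20, 7 and 1 at a difference of at least 20 points, 0 and 0 by the overdispersion F test (smallest q 0.799), 0 and 0 by limma per CpG, and 0 and 0 by limma per CpG with the replicate block. At Hox CpGs of 20 to 80% the variance of the reads within the groups was 2.44 times that of binomial counting (median of 397 CpGs). Leaving out each pool gave 21 to 34 hypoDMCs and 12 to 22 hyperDMCs, while the shares of the table ran from 1.11 to 1.87% and from 0.438 to 1.35%. For the coverage of at least 20 and the difference of at least 20 points, the shares of the table were not counted. Leaving out a pool moved the Hoxc difference to between -0.722 and -0.400 points, and coverage weighting moved it to -0.967. For Hoxa, Hoxb, Hoxd and all Hox CpGs it ran from -0.273 to 0.268, -0.234 to 0.443, -0.309 to 0.0660 and -0.356 to 0.131, each highest without arsenic 1, so the sign of these small differences is not stable. A coverage of at least 20 turned it for Hoxa (0.0104) and merged strands for Hoxd (0.100). Replicate numbers are shared between the groups but did not pair the pools (correlations of deviations -0.0322 to 0.0663). With the number as a replicate block 0 runs were called, and 14 lower (6.11%, against 4.39% of all runs) and 12 higher Hox runs (5.24%, against 2.15%) had an unadjusted p under 0.05. On levels in percent these were 11 and 6 (4.80% and 2.62%, against 6.41% and 1.74%). With gaps of up to 300 b the Hoxb5os run joined its neighbours and its difference was -2.38 points. It was not formed with a gap of 50 b or a coverage of at least 20. At that coverage the Hoxc6 intron run was not formed either, and the Hoxa13 coding run had 0.746 points (limma unadjusted p = 0.330). On levels in percent the Hoxa13 coding run had a limma unadjusted p of 0.173. The Hoxa edge run and the Hoxa3-Hoxa4 run kept a limma unadjusted p under 0.05 at both gaps, at that coverage and on levels in percent. Promoter CpGs of Hoxc12 were not measured within 250 b or at a coverage of at least 20.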
